A study of Mus musculus with 6 samples.

Results

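The 42 nuclear genes examined here encode subunits of respiratory complexes II to V and cytochrome c, and they were taken from the deposited count table by gene symbol. All 42 symbols were found among its 52459 genes, and all 42 passed the filter on low counts that left 17032 genes for testing. By complex, 4 belong to complex II (Sdh), 9 to complex III (Uqcr and Cyc1), 12 to complex IV (Cox) and 16 to complex V (Atp5), and Cycs encodes the carrier between complexes III and IV. Atp5sl is counted with complex V by its symbol only, since its product, also called DMAC2, is known as an assembly factor of complex I.

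The respiratory chain of the inner mitochondrial membrane passes electrons from nutrients to oxygen and pumps protons as it does so. Complex II (succinate dehydrogenase) feeds electrons from the citric acid cycle into ubiquinone, complex III passes them to cytochrome c, complex IV (cytochrome c oxidase) hands them to oxygen, and complex V (ATP synthase) uses the proton gradient to make ATP. Complexes III, IV and V also hold subunits made from mitochondrial DNA, whereas complex II is built from nuclear genes alone, and hepatocytes are rich in all of them.

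RNA was sequenced from the whole livers of 6 male mice of strain C57BL6J and genotype Alb-Cre/Cas9 F1, 8 months of age. A vector, AAV8-U6-sgCtrl in 3 mice (sgCtrl, mice 5.1, 7.1 and 7.2) and AAV8-U6-sgPrdx2 in 3 (sgPrdx2, mice 1.1, 1.3 and 3.2), had been given intravenously at 4 to 5 weeks of age. In both groups diethylnitrosamine (DEN), which induces liver tumours, followed after 3 weeks at 100 mg/kg, and 1 week later the mice were put on CDAHFD, which is high in fat, deficient in choline and defined in its amino acids, on which they stayed for 6 months. Alb-Cre is used to drive Cas9 in hepatocytes, so other cells of the liver are not meant to be edited; which cells were edited was not measured in these data, and no untreated livers were compared here. Prdx2, the peroxiredoxin targeted by the guide, was counted at 109, 117 and 132 normalized CPM (counts scaled to the size of each library) in sgCtrl livers and at 99, 112 and 149 CPM in the sgPrdx2 group. The difference was 0.01 on the log2 scale (SE 0.18, adjusted p = 0.983), so the level of this mRNA does not check the group labels; a guide can disrupt a protein without lowering its mRNA.

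Total counts ranged from 37462102 to 56865293 per liver, and the 42 genes took 0.780% ± 0.0385 of all counts in sgCtrl livers and 0.889% ± 0.0738 in sgPrdx2 livers (mean ± SD, n = 3 per group throughout). The scaling factors between livers (TMM) lay between 1.12 and 1.17 in sgCtrl and between 0.805 and 0.951 in sgPrdx2 livers. Liver 3.2 stood apart on the first principal component of all tested genes, at 48.3 against 18.3 and 10.8 in the other sgPrdx2 livers. In it, levels also ran with transcript length: genes under 1000 bases had a median log2 level of 0.422 over the sgCtrl mean and longer genes one of -0.0921, compared with 0.0629 and -0.0322 in liver 1.1 and 0.054 and -0.0137 in liver 1.3. Most respiratory subunits are small proteins, 26 of the 42 have transcripts under 1000 bases, and results are therefore given with and without liver 3.2.

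To show the DNA from which these genes are read, 120 bases upstream of the start site are printed for the member with the largest fold change (Uqcr11), the complex II member with the smallest p (Sdhd), the c-ring gene with the smallest p (Atp5g3) and the Cox7a isoform pair. Sequences are from RefSeq on GRCm38.p6, 5′ to 3′ on the strand of the gene. Capitals mark GCGCA, any base and GCGC in a row, known as a site of the nuclear respiratory factor NRF1, CCGGAAG, a site of ETS factors such as GABP, and AAGGTCA, a site of oestrogen-related receptors (ERR), each searched on both strands.
Uqcr11, chr10:80406822-80406941, minus strand: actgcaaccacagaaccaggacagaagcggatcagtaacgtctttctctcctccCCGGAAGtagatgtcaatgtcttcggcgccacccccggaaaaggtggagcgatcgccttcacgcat
Sdhd, chr9:50603850-50603969, minus strand: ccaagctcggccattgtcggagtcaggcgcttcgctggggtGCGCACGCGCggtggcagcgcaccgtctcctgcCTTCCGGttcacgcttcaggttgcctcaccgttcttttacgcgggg
Atp5g3, chr2:73911327-73911446, minus strand: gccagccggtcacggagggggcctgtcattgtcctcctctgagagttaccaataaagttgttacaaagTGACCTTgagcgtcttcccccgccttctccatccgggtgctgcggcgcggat
Cox7a1, chr7:30184051-30184170, plus strand: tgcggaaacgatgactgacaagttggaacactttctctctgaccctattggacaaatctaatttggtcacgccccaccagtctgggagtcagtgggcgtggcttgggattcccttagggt
Cox7a2, chr9:79759854-79759973, minus strand: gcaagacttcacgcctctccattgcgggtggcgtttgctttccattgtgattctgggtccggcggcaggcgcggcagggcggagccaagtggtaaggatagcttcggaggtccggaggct
The Sdhd stretch held both the NRF1 and the ETS letters, Uqcr11 held the ETS letters, Atp5g3 held the ERR letters on the other strand, and the Cox7a1 and Cox7a2 stretches held none of the 3.

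Promoters of 300 bases were on hand for 34 of the 42 members and for 12018 tested genes, members included. The NRF1 letters occurred in 10 of the 34 members (29.4%) and in 10.2% of the genes, the ETS letters in 12 (35.3%) and 17.9%, and the ERR letters in 5 (14.7%) and 4.32%. AAGATGGC, a YY1 site, occurred in 4 (11.8%) and 4.75%. The SP1 letters GGGCGG were in 12 members (35.3%) but in 64.1% of the genes. CCAAT was in 19 members (55.9%) and 42.2% of the genes, and TATAAA in 1 (2.94%) and 9.83%. No motif of the 7 contains another. Members with the NRF1 letters had a median log2 fold change of 0.58 and those without them one of 0.65, and with and without the ETS letters the medians were 0.67 and 0.59. These matches are a description of the sequence and no measure of binding.

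All 42 members had a log2 fold change above 0 in sgPrdx2 compared with sgCtrl livers, with a median of 0.62 and a range of 0.10 to 1.01, whereas the median over all tested genes was -0.02 and 48.3% of them lay above 0. Summed over the members, the level was 6422, 6844 and 7329 CPM in sgCtrl livers and 9532, 8938 and 12104 CPM in sgPrdx2 livers. The groups did not overlap, the ratio of their means was 1.48, and without liver 3.2 it was 1.35. Each sgPrdx2 liver by itself lay above the sgCtrl mean in at least 41 of the 42 genes, with median log2 levels of 0.47 in liver 1.1, 0.39 in liver 1.3 and 0.97 in liver 3.2. Because whole liver was sequenced, fewer cells of a type and less RNA per cell cannot be told apart, nor can more cells and more RNA per cell.

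**Figure D1:**
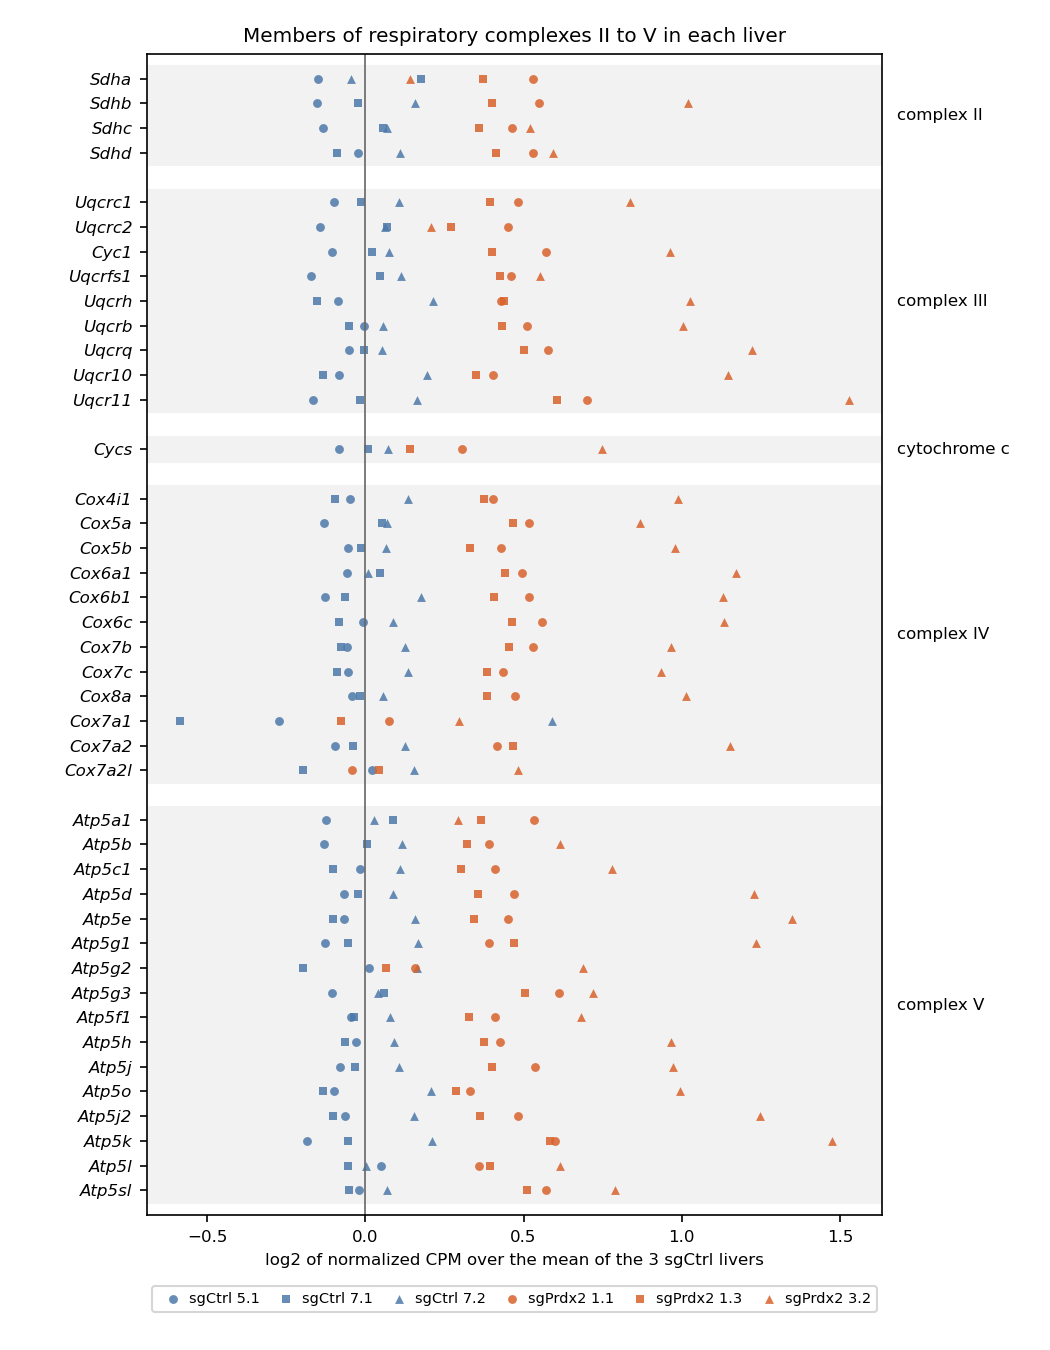
Level of each of the 42 members in each liver, as log2 of normalized CPM over the mean of the 3 sgCtrl livers (horizontal axis), grouped by complex; blue symbols are sgCtrl and orange symbols sgPrdx2 livers. In 38 rows all orange symbols lie to the right of all blue ones, and liver 3.2 (orange triangles) is farthest right in most rows but not for Sdha, Uqcrc2, Cox7a1 or Atp5a1.

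The single calls were weaker than this common direction. At an adjusted p under 0.05 (edgeR quasi-likelihood test, Benjamini-Hochberg over all tested genes), 1 of the 42 members (2.38%) was called, Atp5sl, and over all genes 1.79% were called higher, so that the share among members was near the background. At an unadjusted p under 0.05, 37 members (88.1%) lay higher in sgPrdx2 livers, compared with 13.0% of all genes, and at an adjusted p under 0.1 the count was 24 (57.1%) compared with 5.66%. Every sgPrdx2 liver lay above every sgCtrl liver in 38 members (90.5%) and in 16.7% of all genes; the reverse held for none of the members and for 17.5% of all genes. DESeq2, run as an alternative, called 35 members (83.3%) and 7.89% of its genes with an adjusted p as higher. The 7 that DESeq2 did not call were Sdha, Uqcrc2, Cycs, Cox7a1, Cox7a2l, Atp5g2 and Atp5o.

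Without liver 3.2, the median log2 fold change of the members was 0.44, 3 were called (Uqcrb, Uqcr11 and Atp5sl), compared with 1.85% of all genes called higher, and 39 did not overlap between the groups, compared with 23.1% of all genes with 2 livers against 3. Correcting each library for the length and GC content of transcripts gave a median of 0.43, 41 of 42 above 0, 8 called members (3.79% of all genes were called higher) and 39 without overlap (17.9% of all genes). Among the 26 members under 1000 bases the median was 0.67, compared with 0.26 over the 2305 genes of that length, and among the 16 longer ones it was 0.48, compared with -0.05 over 14403 genes. Of genes under 1000 bases, 24.7% lay higher in every sgPrdx2 liver than in every sgCtrl liver, compared with 24 of the 26 short members. Spearman's rho of level with transcript length over the 42 members was -0.59 in liver 3.2, 0.01 in liver 1.1 and -0.27 in liver 1.3, and -0.15, 0.49 and -0.36 in sgCtrl livers 5.1, 7.1 and 7.2, as a description over genes that share their libraries. The part of transcript length in the excess of liver 3.2 was not tested beyond these values.

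**Figure D2:**
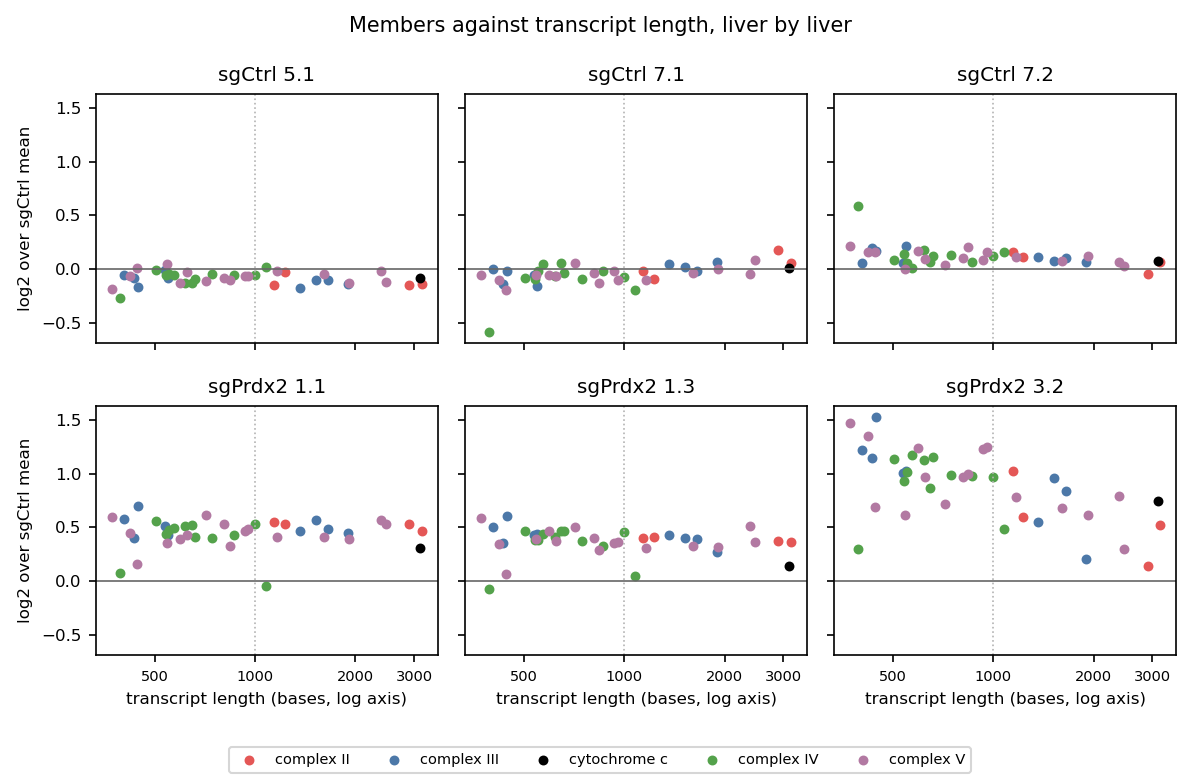
Level of each member over the sgCtrl mean (log2, vertical axis) against transcript length (bases, log axis) in each of the 6 livers, coloured by complex; the dotted line marks 1000 bases. In liver 3.2 the short members have a median of 1.02 and the longer ones of 0.65, whereas liver 1.1 (0.46 and 0.47) and liver 1.3 (0.40 and 0.37) show little slope.

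Markers of cell types moved with the groups as well. Of 13 hepatocyte markers all had a log2 fold change above 0 (median 0.97) and 7 were called: Alb (0.97), Apoa1 (1.15), Ttr (1.35), Serpina1a (1.25), Serpina1b (1.16), Cyp2e1 (0.96) and Fgb (0.83), with adjusted p from 0.0394 to 0.0491 (1.79% of all genes were called higher). Their summed level ranged from 84100 to 92140 CPM in sgCtrl and from 146600 to 193800 CPM in sgPrdx2 livers. All 10 macrophage markers lay below 0, and Mpeg1 (-0.82) and Itgam (-1.24) were called; over all genes 1.54% were called lower. Of 9 lymphocyte markers 7 lay below 0 with Cd8a called (-0.84), of 8 endothelial markers 7 with Pecam1 called (-0.77), of 9 stellate cell and fibroblast markers 8, and of 6 cholangiocyte markers all 6, with none called in the last 2 lists. Leaving out any one of livers 5.1, 7.1, 7.2, 1.1 or 1.3 left none of the hepatocyte, macrophage, lymphocyte or endothelial markers called, and without liver 3.2 the calls were 4, 4, 1 and 1. Without 5.1, 7.2, 1.1 or 1.3, however, 0 of all genes were called, so that loss is not particular to the markers. Without 7.1, 394 of all genes were called. All 13 hepatocyte markers stayed above 0 in each of these fits. Each of these markers had counts, and their part in the levels of the respiratory genes was not tested.

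Ratios within a liver do not depend on the scaling between livers, and the following were chosen after the values were seen and are given without a test. Counts of the 42 members per count of 18 nuclear-encoded mitochondrial proteins outside respiration (import channels, chaperones, proteases, citrate synthase) were 3.35, 3.45 and 3.22 in sgCtrl and 4.56, 4.26 and 5.40 in sgPrdx2 livers. This ratio was higher in all 3 sgPrdx2 livers than in any control, and its means differed 1.42-fold. Per count of the hepatocyte markers the order turned: 0.0764, 0.0743 and 0.0847 in sgCtrl livers were all above 0.0528, 0.0610 and 0.0625 in sgPrdx2 livers. The marker sum is mostly albumin, with Alb at 60214 ± 2051 CPM in sgCtrl and 117782 ± 17469 CPM in sgPrdx2 livers. Within the list only Apob and Hnf4a, with log2 fold changes of 0.32 and 0.30, lay below the median of the respiratory members. All other markers of the list lay above that median, from 0.63 (Asgr1) to 1.35 (Ttr).

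**Figure D3:**
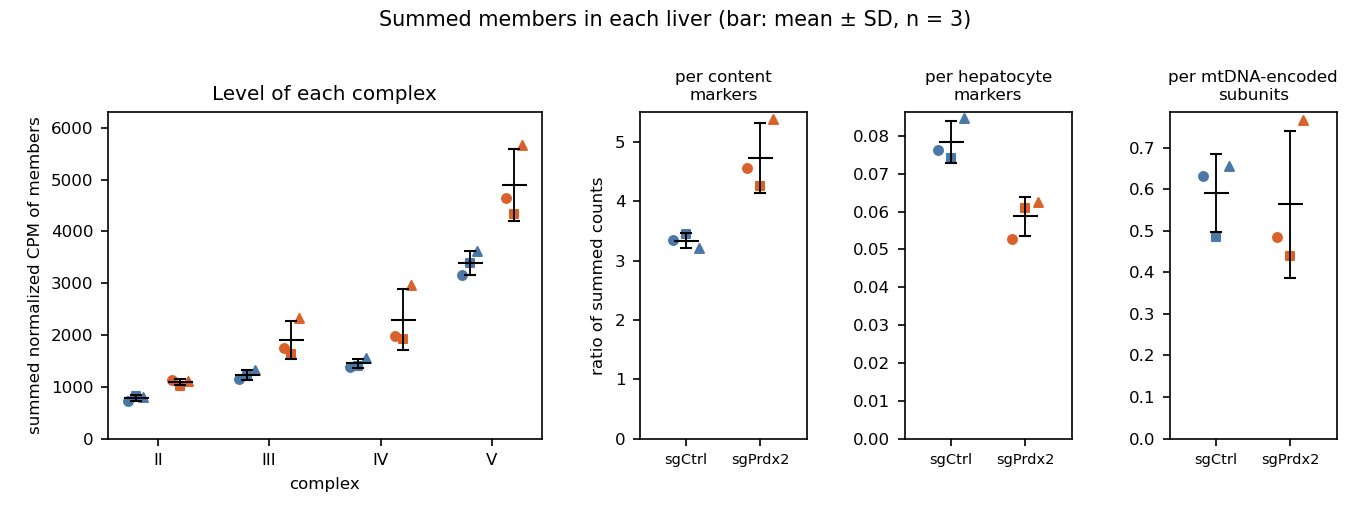
Summed normalized CPM of the members of complexes II to V (left) and the ratio of summed member counts to mitochondrial content markers, hepatocyte markers and mitochondrially encoded subunits (right 3 panels); each symbol is a liver and bars give mean ± SD, n = 3. The sgPrdx2 livers lie above sgCtrl for every complex and per content markers (4.26 to 5.40 compared with 3.22 to 3.45), below per hepatocyte markers, and overlap with sgCtrl per mitochondrially encoded subunits.

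Complex II had a median log2 fold change of 0.48 over its 4 genes, the lowest of the 4 complexes with all livers but not without liver 3.2 (0.47, compared with 0.46, 0.45 and 0.42 in complexes III, IV and V) or with the length and GC correction (0.45, compared with 0.46, 0.44 and 0.415). Its summed level was 785 ± 55.5 CPM in sgCtrl and 1089 ± 56.2 CPM in sgPrdx2 livers, a ratio of 1.39 that stayed at 1.37 without liver 3.2. Sdhb, the iron-sulfur subunit, was at 138, 152 and 172 CPM in sgCtrl livers and at 225, 203 and 312 CPM in sgPrdx2 livers, with the highest value in liver 3.2 (log2 fold change 0.68, SE 0.19, adjusted p = 0.0872). Sdhd, a membrane anchor, was at 156, 149 and 171 CPM compared with 228, 211 and 239 CPM (0.51, SE 0.13, adjusted p = 0.0708). The 3 sgPrdx2 values of Sdhd lay close together, and liver 3.2 did not stand out.

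Sdha, the flavoprotein that oxidizes succinate, had the smallest log2 fold change of the complex, and its levels were 314, 393 and 338 CPM in sgCtrl and 503, 451 and 384 CPM in sgPrdx2 livers. Here liver 3.2 was the lowest of its group and lay below sgCtrl liver 7.1, and the fitted change was 0.36 (log2, SE 0.16, adjusted p = 0.223). The ratio of Sdha to Sdhb counts was 1.23 in liver 3.2 and between 1.97 and 2.6 in the other 5 livers. Sdhc, the other anchor, was at 125 ± 9.67 CPM and 170 ± 9.64 CPM (0.45, SE 0.13, adjusted p = 0.0923), without overlap. Its highest value was in liver 3.2 (179 CPM). The transcripts have 2900 bases for Sdha, 1142 for Sdhb and 3171 for Sdhc, and the part of length in these levels was not tested.

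In complex III all 9 genes lay higher in every sgPrdx2 liver than in every sgCtrl liver (16.7% of all genes did), and the median log2 fold change was 0.66. The summed level was 1227 ± 91.5 CPM in sgCtrl and 1901 ± 370 CPM in sgPrdx2 livers, a ratio of 1.55, or 1.38 without liver 3.2. Uqcr11, a small supernumerary subunit, was at 73.3, 81.1 and 92.1 CPM in sgCtrl livers and at 133, 125 and 237 CPM in sgPrdx2 livers. Its log2 fold change, 1.01 (SE 0.25, adjusted p = 0.0692), was the largest of all 42, and without liver 3.2 it was 0.66. Liver 3.2 lay far above the other 2 sgPrdx2 livers, which in turn lay well above all controls, and 10.9% of the stretches of Uqcr11 are shared with a pseudogene.

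Uqcrb, which lies at the ubiquinone-binding side of the complex, was at 51.2, 49.6 and 53.4 CPM compared with 73.2, 69.3 and 103 CPM (0.67, SE 0.17, adjusted p = 0.0709); 43.2% of the 50-base stretches of its transcript also occur in pseudogenes, so its count is uncertain. At the other end was Uqcrc2, a core subunit on the matrix side, with 180, 208 and 207 CPM in sgCtrl and 271, 240 and 229 CPM in sgPrdx2 livers (0.31, SE 0.14, adjusted p = 0.211). Its groups stayed apart, but liver 3.2 was again the lowest of the sgPrdx2 livers, as for Sdha. Its partner Uqcrc1 had a log2 fold change of 0.58, the 2 redox subunits Cyc1 (cytochrome c1) and Uqcrfs1 (the Rieske protein) had 0.66 and 0.48, and the supernumerary Uqcrh, Uqcrq and Uqcr10 had 0.66, 0.80 and 0.68. For these 6 genes adjusted p ranged from 0.0719 to 0.130.

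Cycs, the electron carrier, was among the lowest members, at 15, 16 and 16.8 CPM in sgCtrl livers and 19.7, 17.6 and 26.8 CPM in sgPrdx2 livers. The groups did not overlap, although liver 1.3 lay only just above the highest control (log2 fold change 0.42, SE 0.17, adjusted p = 0.181). Per kilobase of transcript it had the lowest level of all 42 in sgCtrl livers, 5.1 ± 0.278 CPM, compared with 603 ± 51.9 CPM per kilobase for Atp5b at the top. Of its 50-base stretches, 28.2% are shared with other annotated genes, among them 10 pseudogenes. Its testis paralog Cyct had no counts in any liver.

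**Figure D4:**
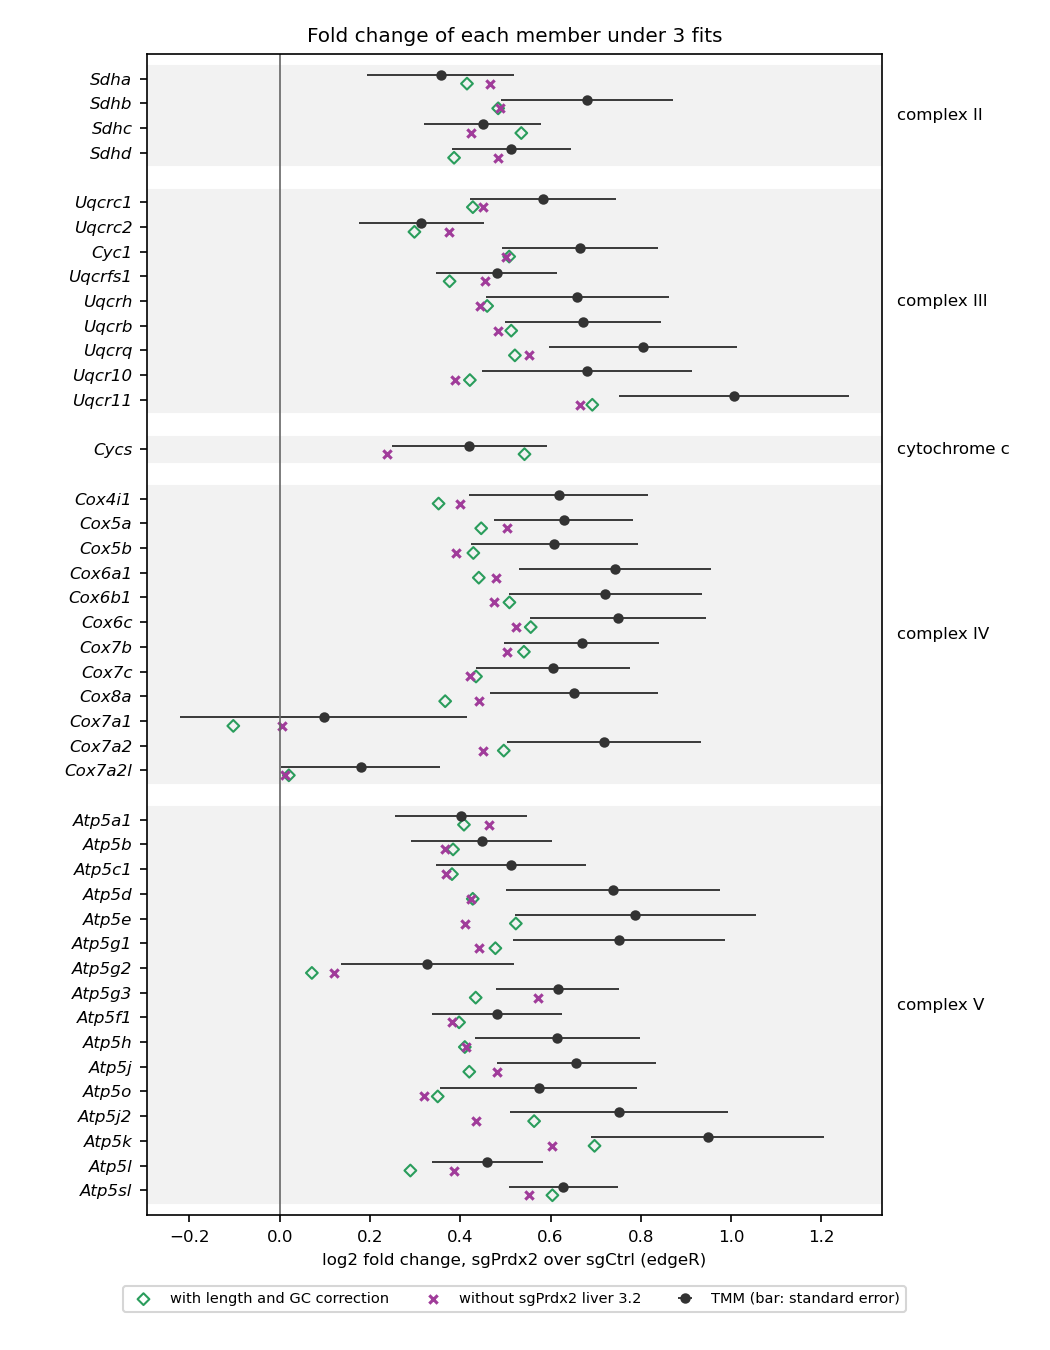
Log2 fold change of each member, sgPrdx2 over sgCtrl, from edgeR (circles with standard errors), after correction for transcript length and GC content (green diamonds) and without liver 3.2 (purple crosses). Both alternatives bring Uqcr11 and Atp5k from 1.01 and 0.95 to between 0.60 and 0.70, and Cox7a1 and Cox7a2l lie near 0 in both.

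Complex IV had a median log2 fold change of 0.64 over 12 genes, and its summed level was 1450 ± 94.9 CPM in sgCtrl and 2292 ± 588 CPM in sgPrdx2 livers. The ratio of 1.58 was the highest of the complexes with liver 3.2 and was 1.35 without it. Cox5a, a matrix-side subunit, was at 89.8, 102 and 103 CPM in sgCtrl livers and at 141, 136 and 180 CPM in sgPrdx2 livers (0.63, SE 0.15, adjusted p = 0.0652). Cox7b was at 116, 114 and 131 CPM compared with 174, 165 and 235 CPM (0.67, SE 0.17, adjusted p = 0.0708). In both genes all 3 sgPrdx2 livers were clear of the controls, with liver 3.2 on top.

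Cox6c had the largest log2 fold change of the complex, 0.75 (SE 0.20, adjusted p = 0.0725), from 112, 106 and 119 CPM to 165, 155 and 246 CPM; 21.1% of its stretches are shared with a pseudogene. The other 6 subunits with no isoform among the members, Cox4i1, Cox5b, Cox6a1, Cox6b1, Cox7c and Cox8a, had log2 fold changes from 0.61 to 0.74 and adjusted p from 0.0873 to 0.116. None of the 6 overlapped between the groups (16.7% of all genes lay higher in every sgPrdx2 liver). Of their stretches, 53% in Cox7c, 25.9% in Cox5b and 12.3% in Cox6a1 are shared with other genes or pseudogenes, so these counts are uncertain. Cox4i1, Cox6a1 and Cox8a are the forms that liver uses. Their counterparts known from lung or from muscle and heart stood far lower: Cox4i2 at 0.436 ± 0.118 CPM, Cox8b at 0.285 ± 0.190 CPM and Cox6a2 at 3.31 ± 4.32 CPM in sgCtrl livers, none of them called.

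The Cox7a genes had unequal log2 fold changes, whose differences from each other were not tested. Cox7a2, the form found in most tissues, was at 105, 109 and 122 CPM in sgCtrl livers and 149, 154 and 249 CPM in sgPrdx2 livers (0.72, SE 0.21, adjusted p = 0.0997), without overlap. Cox7a2l, which encodes a related protein, was at 56.7, 48.8 and 62.3 CPM compared with 54.3, 57.6 and 78.2 CPM (0.18, SE 0.18, adjusted p = 0.552). Livers 1.1 and 1.3 lay among the controls here, and only liver 3.2 lay above them; without it the log2 fold change was 0.01. The ratio of Cox7a2l to Cox7a2 counts was 0.541, 0.448 and 0.510 in sgCtrl and 0.364, 0.373 and 0.314 in sgPrdx2 livers, which did not overlap; the ratio was chosen after its values were seen, and 19.8% of the Cox7a2l stretches are shared with a pseudogene.

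Cox7a1, the heart and muscle form, was the lowest member by CPM, at 1.99, 1.60 and 3.61 CPM in sgCtrl livers and 2.53, 2.27 and 2.95 CPM in sgPrdx2 livers. The groups overlapped fully and the log2 fold change, 0.10 (SE 0.32, adjusted p = 0.866), was the smallest of the 42. These values rest on 72 to 190 counts per liver. Per length, Cox7a1 made up 3.08%, 2.41% and 4.73% of Cox7a1 and Cox7a2 together in sgCtrl livers and 2.77%, 2.41% and 1.95% in sgPrdx2 livers, a difference of -1.03 percentage points (two-sided exact permutation test, p = 0.3, 0.6 when adjusted over the 4 isoform shares tested); with 3 livers a group the smallest p this test allows is 0.1. Liver 7.2, the highest in Cox7a1, was also the highest in the muscle isoform Cox6a2, at 8.30 CPM compared with 0.708 to 2.12 CPM elsewhere, while 8 muscle markers summed to 3.22 CPM there and to between 1.66 and 6.05 CPM in the other livers. That sum is mostly Tnnt2 (2.83 CPM in liver 7.2). The other markers had 0 to 13 counts per liver and only 2 of the 8 passed the filter on low counts, so the sum is a weak measure of muscle tissue.

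**Figure D5:**
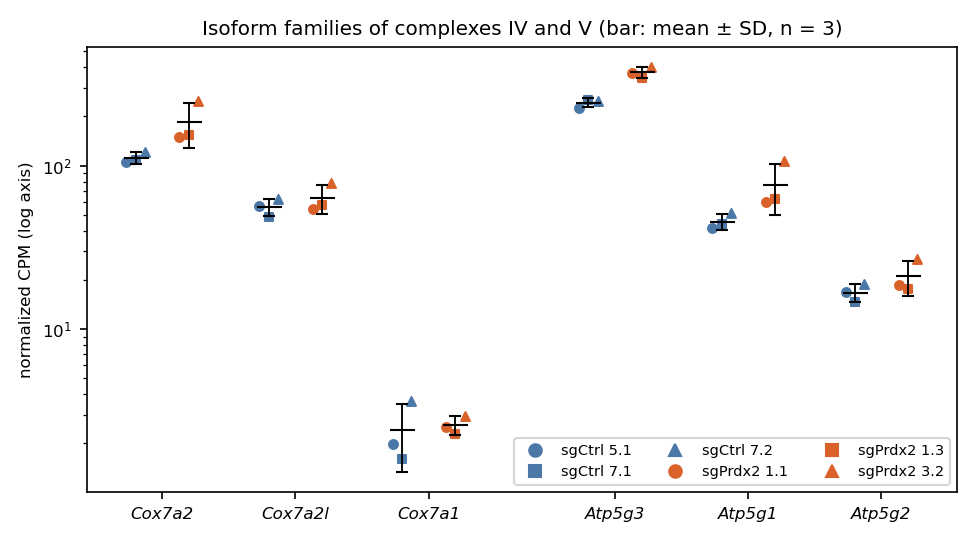
Normalized CPM (log axis) of the Cox7a family and of the 3 genes for subunit c of ATP synthase in each liver; symbols are livers and bars give mean ± SD, n = 3. Cox7a2, Atp5g3 and Atp5g1 are higher in every sgPrdx2 liver than in every sgCtrl liver, while Cox7a2l, Cox7a1 and Atp5g2 overlap between the groups.

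Complex V had a median log2 fold change of 0.62 over 16 genes, and its summed level was 3387 ± 231 CPM in sgCtrl and 4888 ± 695 CPM in sgPrdx2 livers (ratio 1.44, and 1.33 without liver 3.2). Of the catalytic head and central stalk, Atp5b (beta) and Atp5a1 (alpha) had log2 fold changes of 0.45 and 0.40, while the small stalk subunits Atp5d (delta) and Atp5e (epsilon) had 0.74 and 0.79 and Atp5c1 (gamma) 0.51. None of these 5 overlapped between the groups (16.7% of all genes lay higher in every sgPrdx2 liver), and adjusted p ranged from 0.116 to 0.147. The ratio of Atp5a1 to Atp5b counts was 0.618 ± 0.0369 in sgCtrl and 0.604 ± 0.0977 in sgPrdx2 livers. For these subunits, which alternate in the head, the difference in ratio was smaller than the spread between livers.

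The 3 genes for subunit c encode the same mature protein with different import signals. Atp5g3 was at 226, 253 and 250 CPM in sgCtrl livers and at 371, 345 and 400 CPM in sgPrdx2 livers, with close values within each group (0.62, SE 0.14, adjusted p = 0.0533). Atp5g1 was at 41.6, 43.7 and 51.0 CPM compared with 59.6, 62.9 and 107 CPM (0.75, SE 0.23, adjusted p = 0.109), without overlap and with liver 3.2 far above the rest. Atp5g2 was at 16.9, 14.6 and 18.8 CPM compared with 18.7, 17.5 and 27.0 CPM (0.33, SE 0.19, adjusted p = 0.324), and its groups overlapped. All 50-base stretches of the Atp5g2 transcript and 66% of those of Atp5g1 also occur in pseudogenes, so both counts are uncertain, whereas Atp5g3 shares none.

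Per length, Atp5g3 made up most of the c-ring mRNA as counted, 74.9% ± 1.88 in sgCtrl and 75.1% ± 4.55 in sgPrdx2 livers. Atp5g1 supplied 16.8% ± 1.03 and 18.1% ± 3.83, and Atp5g2 8.37% ± 1.03 and 6.78% ± 0.738. Two-sided exact permutation tests gave p = 1, 0.8 and 0.2, where 0.1 is the smallest they can reach, so they do not show that the shares were alike. For Atp5g2 the shares were 9.03%, 7.19% and 8.90% in sgCtrl and 6.39%, 6.32% and 7.63% in sgPrdx2 livers, which overlapped. The share of Atp5g1 was 22.4% in liver 3.2, compared with 15.1% and 16.8% in the other sgPrdx2 livers. The level of these shares rests on the uncertain counts of Atp5g1 and Atp5g2, which share stretches with pseudogenes while Atp5g3 does not. How shared reads were counted is not given, so the share of Atp5g3 may be too high. The level also depends on the transcript taken for length, which has 596 bases for Atp5g1. With the longest principal transcript, of 4715 bases, the mean share of Atp5g1 was 2.61% in sgCtrl and 2.86% in sgPrdx2 livers. Atp5g2 then stood above Atp5g1 in both groups (6.23% in sgCtrl livers), while Atp5g3 still made up most of the counts per length.

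Atp5k, a small membrane subunit (subunit e), had the largest log2 fold change of the complex, from 51.7, 56.6 and 67.9 CPM in sgCtrl livers to 89, 88 and 163 CPM in sgPrdx2 livers (0.95, SE 0.26, adjusted p = 0.0813). Livers 1.1 and 1.3 were nearly equal and liver 3.2 lay well above them; without it the log2 fold change was 0.60. The membrane subunits Atp5j2 and Atp5l had 0.75 and 0.46, and the peripheral stalk genes Atp5f1, Atp5h, Atp5j and Atp5o had 0.48, 0.61, 0.66 and 0.57. All of them were without overlap (16.7% of all genes lay higher in every sgPrdx2 liver), with adjusted p from 0.0772 to 0.159. Of these, Atp5l (68.5% of stretches), Atp5h (50.5%), Atp5f1 (23.2%) and Atp5o (19.1%) share over 10% of their stretches with other genes, mostly pseudogenes, and Atp5j (5%) and Atp5j2 (3.75%) share fewer. The annotation also holds a second locus named Atp5o and a Donson transcript over the same exons, so the Atp5o count is uncertain on that ground too.

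Atp5sl, the single called member, was at 30.4, 29.8 and 32.3 CPM in sgCtrl livers and rose to 45.8, 43.9 and 53.3 CPM in sgPrdx2 livers. The spread within each group was small next to the gap between them, and the log2 fold change was 0.63 (SE 0.12, adjusted p = 0.0445). Its fold change was close to the median of the members, so its call came with a small error rather than a large shift. The call was lost when any one of livers 5.1, 7.1, 7.2, 1.1 or 1.3 was left out and was kept without liver 3.2, with log2 fold changes from 0.55 to 0.70 over these fits. Without 5.1, 7.2, 1.1 or 1.3 edgeR called 0 of all genes at an adjusted p under 0.05 (3114 to 3993 had an unadjusted p under 0.05), so the loss in those fits is not particular to Atp5sl. Without 7.1, however, edgeR called 394 of all genes, and Atp5sl had an adjusted p of 0.0928.

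The partner subunits made from mitochondrial DNA also lay higher: all 6 of complexes III to V had log2 fold changes above 0 (median 0.87). At an adjusted p under 0.05, 2 of them rose (1.79% of all genes were called higher). mt-Cytb, the core of complex III, was at 5834 ± 1120 CPM in sgCtrl and 10964 ± 549 CPM in sgPrdx2 livers (0.91, SE 0.19, adjusted p = 0.0491). mt-Co3 of complex IV was at 4.66 ± 0.215 CPM and 9.08 ± 1.08 CPM (0.96, SE 0.15, adjusted p = 0.0358), a level far below that of mt-Co1 of the same complex (5965 ± 1242 CPM in sgCtrl livers). The means of mt-Co2 (5.51 CPM), mt-Atp6 (5.06 CPM) and mt-Atp8 (0.265 CPM) in sgCtrl livers were as far below, so the counts of these 4 genes are uncertain and the median of the list rests mostly on them. mt-Co1 itself had a log2 fold change of 0.35 (SE 0.26, adjusted p = 0.426). It overlapped through liver 3.2, at 5212 CPM compared with 8879 and 8746 CPM in livers 1.1 and 1.3 and 4977 to 7359 CPM in sgCtrl livers. Without liver 3.2 the median of the list was 0.83. All 6 were then without overlap (23.1% of all genes) and 1 was called (1.85% of all genes were called higher). Without 7.1, 1 was called, and without 5.1, 7.2, 1.1 or 1.3 none was, as over all genes. Members per count of these 6 genes were 0.591 ± 0.0931 in sgCtrl and 0.563 ± 0.177 in sgPrdx2 livers, and liver 3.2, the highest sgPrdx2 liver in nuclear subunits, was the lowest of its group in the summed mitochondrial ones (15800 CPM compared with 19660 and 20360 CPM).

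Genes around the complexes were taken from 2 further lists, and no difference between lists was tested. Of 39 tested assembly factors of complexes II to V, 38 had a log2 fold change above 0, with a median of 0.36 and none called; 15 lay higher at an unadjusted p under 0.05 (13.0% of all genes did), and DESeq2 called 6 (7.89% of all genes). The smallest p belonged to Sdhaf4 (complex II; 0.77, adjusted p = 0.0561), Fmc1 (complex V; 0.98, adjusted p = 0.0583) and Higd2a (complex IV; 0.54, adjusted p = 0.0895), while Hccs, which attaches haem to the c-type cytochromes, was at -0.10 (adjusted p = 0.646). Of 10 tested isoforms and paralogs outside the members, 9 lay above 0, with a median of 0.60, and none was called at an adjusted p under 0.05. At an unadjusted p under 0.05, 4 of the 10 lay higher (13.0% of all genes did), and DESeq2 called 3 (7.89% of all genes). Ndufa4, a subunit associated with complex IV, was at 0.80 (adjusted p = 0.0727), and Usmg5, a complex V subunit, was at 0.67 (adjusted p = 0.0689). Atpif1, the inhibitor of ATP synthase, was at 0.02 (SE 0.24, adjusted p = 0.965).

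The 18 mitochondrial content markers stood nearest to the background, with 13 above 0 (48.3% of all genes were), a median log2 fold change of 0.10 and none called. At an unadjusted p under 0.05, 3 lay higher (13.0% of all genes did). In 5 of them every sgPrdx2 liver lay above every sgCtrl liver (16.7% of all genes). Cs, citrate synthase, was at 149 ± 23.5 CPM in sgCtrl and 148 ± 5.86 CPM in sgPrdx2 livers (-0.01, SE 0.15, adjusted p = 0.970). Vdac1, a channel of the outer membrane, was at 0.12 (SE 0.13, adjusted p = 0.598). The smallest p of the list belonged to Timm44 (0.40, adjusted p = 0.135), Phb2 (0.43, adjusted p = 0.140) and Clpp (0.62, adjusted p = 0.156), each without overlap between the groups. Cs, Vdac1, Timm44 and Phb2 lay below the median of the 42 respiratory members, and Clpp lay at about that median.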

How the data were processed

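RNA-Seq of 6 livers was analysed, 3 per group, with groups taken from the labels. The authors deposited counts of reads per gene as whole numbers without normalization; the labels name HISAT2, HTSeq, DESeq2 and the build GRCm38, while versions, annotation and strand setting are not given in the sources used here. A second deposited table, the authors' own DESeq2 comparison (fold changes and p-values), was not used.

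Counts were analysed with edgeR 4.0.16 in R 4.3.3 (filterByExpr, minimum count 10, TMM, glmQLFit and glmQLFTest without covariates), and p-values were adjusted by Benjamini-Hochberg over 17032 genes and called under 0.05. Levels are CPM on TMM-scaled library sizes, and standard errors were derived from the fold change and F. Isoform shares, per transcript length, were compared by exact permutation. Transcript lengths and shared 50-base stretches come from GENCODE M21 (GRCm38), where Atp5sl is named Dmac2, and promoters from RefSeq. The members and gene lists were chosen with earlier results of these data known. Named genes were, per complex, the 2 members with the smallest p and those with the largest and smallest fold change, all Cox7a and c-ring genes, Cycs and Atp5sl, and of each list up to 3 genes with the smallest p and every called gene. Alternatives were other scalings, DESeq2 1.42.0, other filters, a length and GC correction (mgcv 1.9.3) and leaving out each liver. A floor of 3 counts corresponds to 0.0555 to 0.0921 CPM, which covers counting error only; the livers come from separate mice. On data simulated for this comparison with 16838 genes, edgeR recovered 39 of 100 genes changed 2-fold and 89 of 100 changed 4-fold, with 13 other calls.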

Additional observations from a re-analysis of the deposited data

How the results depend on the processing

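The direction of the median over the 42 members held under every alternative run. Scaling to total counts, which moved the median of all genes to -0.39, gave a median of 0.24 (0.63 above all genes). With it 0 members were called (1.21% of all genes were called higher). At an unadjusted p under 0.05 there were 3 members, and 7213 of the 17032 genes in either direction. Without overlap were 17 members (4.33% of all genes). Sdha (-0.0057), Uqcrc2 (-0.053), Cox7a1 (-0.28), Cox7a2l (-0.20) and Atp5g2 (-0.061) then lay below 0. The number of called members was 24 at an adjusted p under 0.1 (5.66% of all genes were called higher) and 35 with DESeq2 (7.89%). It was 6 without a filter on low counts (2.25%) and 8 with the length and GC correction (3.79%), whose median was 0.43 and under which Cox7a1 was at -0.10. Leaving out 1 liver gave 0 to 3 called members and medians of 0.44 (without liver 3.2) to 0.74. Without 5.1, 7.2, 1.1 or 1.3, 0 of all genes were called. Without 7.1, 394 of all genes were called and 0 members, and without 3.2, 1.85% of all genes were called higher. Cox7a1 was at -0.023 without liver 5.1 and at -0.12 without liver 7.1. The difference in the share of Atp5g1 was 0.25 percentage points with the longest principal transcript, where the share itself was only 2.61% in sgCtrl livers. That length was chosen after seeing the data. Over the livers left out, the difference for Atp5g1 ranged from -0.81 (without liver 3.2) to 2.85 percentage points. That of Atp5g3 was -0.087 on counts, -0.592 without liver 7.2 and -0.637 without liver 1.3, and ranged from -1.46 to 2.83 over the livers left out. RLE and upper-quartile scaling, TMM without the members, and a stricter filter moved no call of a member. The causes were not tested. No paired analysis was possible because the mice of the groups share no replicate number. The number before the point in these labels also never occurs in both groups, so anything it stands for cannot be told apart from the guide. Without liver 3.2, both sgPrdx2 livers left, 1.1 and 1.3, carry the same such number.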
